A study of Mus musculus with 6 samples.

Results

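Beige and thermogenic genes were examined as a group of 9 gene symbols, *Ucp1*, *Ppargc1a*, *Dio2*, *Cidea*, *Elovl3*, *Prdm16*, *Kcnk3*, *Ckmt2* and *Slc6a8*, out of 37384 symbols in the count table. They were taken by name and not by a threshold on their counts, but with earlier results of these libraries known. Floated adipocytes of inguinal subcutaneous white adipose tissue (scWAT) were sequenced at postnatal day 7. Male pups were used, 4 to a pool, and L1L2-FF and L1L2-AKO had 3 such pools and libraries each. L1L2-FF mice carry floxed alleles of *Lats1* and *Lats2*, the kinases at the core of the Hippo pathway, and no Cre. L1L2-AKO mice carry the same floxed alleles plus Cre driven by the *Adipoq* promoter, which is active in adipocytes and not in the macrophages, vessels or nerves of the same depot. In the study's account this promoter is also active in some adipocyte precursors before birth. The floxed alleles are thus shared by every library, and an animal's own value cannot be seen within a pool. The question asked here was how the thermogenic genes of these adipocytes compared between the genotypes, and how far they varied among the L1L2-FF libraries.

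Thermogenic adipocytes burn fuel to make heat. In brown fat, and in the beige adipocytes that appear within white depots, noradrenaline acts on beta-adrenergic receptors, raises cAMP and releases fatty acids, and these open UCP1, a carrier of the inner mitochondrial membrane that lets protons return without making ATP. The same cAMP signal raises transcription of *Ucp1*, of *Dio2*, whose product makes active thyroid hormone inside the cell, and of *Ppargc1a*, a coactivator that drives mitochondrial biogenesis. PRDM16 holds the brown and beige identity, CIDEA and ELOVL3 serve the lipid droplet and its fatty acids, KCNK3 sets the membrane potential, and creatine taken up through SLC6A8 can be cycled by mitochondrial creatine kinases in a second route of heat production. Inguinal scWAT is the depot of the mouse in which beige adipocytes are most readily found.

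The 6 libraries held 30548473 to 32107917 counts. The default filter of edgeR kept 15674 genes, and expression is given as counts scaled to a common library size (CPM) after TMM normalization, with the SD over 3 libraries. *Lats1* was lower in the libraries labelled L1L2-AKO, at 40.2 ± 1.16 CPM against 82.9 ± 9.90 CPM, whereas *Lats2* was higher, at 119 ± 20.6 CPM against 76.4 ± 8.68 CPM. The count of *Lats2* thus does not follow the label, but counts per gene do not separate reads from the floxed exons and cannot show their loss, so that L1L2-AKO stands below for the label of a library. The adipocyte label was met in every library: all 14 mature adipocyte markers, *Adipoq*, *Plin1* and *Fabp4* among them, passed the filter and summed to 33420 to 41000 CPM in L1L2-FF and 28990 to 37760 CPM in L1L2-AKO. A large part of these sums is *Lpl*, at 8400 to 13960 CPM in L1L2-FF and 14180 to 20190 CPM in L1L2-AKO. By fitted log2 fold change 12 of the 14 were lower in L1L2-AKO and 2 higher, so the sums do not show a like level of each marker. Markers of other cells were present as well. Those of macrophages summed to 330 to 623 CPM in L1L2-FF and 1164 to 1305 CPM in L1L2-AKO, and 16 of 18 rose past the threshold, which is a Benjamini-Hochberg adjusted p of 0.05 over all genes tested by the quasi-likelihood method of edgeR. In such bulk libraries fewer cells of a type and less RNA per cell cannot be told apart.

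The start sites of the cAMP-responsive genes and of *Prdm16* are shown first, because the adrenergic pathway and the TEAD factors that act below LATS meet their targets through short DNA motifs. Each stretch below runs from 250 bases before to 50 bases after the RefSeq start of the gene in GRCm38.p6, printed 5′ to 3′ on the strand of the gene, and capitals mark matches to the motifs searched on both strands: CATTCC (the TEAD core, GGAATG on the other strand), TGACGTCA (the cAMP response element, CRE) and TGACG (the CRE core, CGTCA on the other strand), which also lies within the full CRE.
Ucp1, chr8:83290098-83290397, plus strand: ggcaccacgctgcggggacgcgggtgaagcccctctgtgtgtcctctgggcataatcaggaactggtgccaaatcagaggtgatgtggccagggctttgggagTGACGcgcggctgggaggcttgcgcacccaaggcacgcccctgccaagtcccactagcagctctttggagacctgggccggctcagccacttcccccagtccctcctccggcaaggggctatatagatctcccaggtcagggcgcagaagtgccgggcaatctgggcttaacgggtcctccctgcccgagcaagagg
Dio2, chr12:90738989-90739288, minus strand: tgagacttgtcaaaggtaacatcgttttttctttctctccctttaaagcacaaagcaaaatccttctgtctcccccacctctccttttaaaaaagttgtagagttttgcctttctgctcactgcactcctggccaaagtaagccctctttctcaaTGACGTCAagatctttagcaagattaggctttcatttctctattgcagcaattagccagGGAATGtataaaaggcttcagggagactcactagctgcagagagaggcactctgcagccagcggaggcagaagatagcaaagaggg
Ppargc1a, chr5:51567676-51567975, minus strand: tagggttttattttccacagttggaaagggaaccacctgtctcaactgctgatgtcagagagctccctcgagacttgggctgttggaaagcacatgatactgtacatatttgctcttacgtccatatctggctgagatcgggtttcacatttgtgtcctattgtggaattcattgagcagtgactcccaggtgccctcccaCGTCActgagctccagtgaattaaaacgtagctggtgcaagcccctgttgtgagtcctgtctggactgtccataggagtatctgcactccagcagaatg
Prdm16, chr4:154636824-154637123, minus strand: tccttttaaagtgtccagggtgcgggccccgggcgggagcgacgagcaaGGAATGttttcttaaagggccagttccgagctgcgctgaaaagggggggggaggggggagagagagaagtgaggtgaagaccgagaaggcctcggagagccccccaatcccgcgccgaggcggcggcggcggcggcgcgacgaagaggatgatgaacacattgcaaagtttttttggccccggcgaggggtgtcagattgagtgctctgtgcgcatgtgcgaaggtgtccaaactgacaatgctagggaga

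Windows were at hand for 5 of the 9 genes, *Ckmt2*, *Dio2*, *Ppargc1a*, *Prdm16* and *Ucp1*. *Dio2* held the full CRE, with its leftmost base at position -95 from the start, and a TEAD core on the other strand at -36. *Ucp1* held a CRE core at -147, *Ppargc1a* a CRE core on the other strand at -49, and *Prdm16* a TEAD core on the other strand at -201. The window of *Ckmt2* held none of the motifs. Among all 32851 RefSeq windows of this length, 1.79% held the CRE, 20.8% the CRE core and 14.7% the TEAD core, so the CRE core and the TEAD core are common by themselves. The *Dio2* start in RefSeq lies upstream of the gene as annotated in GENCODE M21, whereas the other windows end inside the transcripts of their gene. A match is a stretch of letters and was not tested for binding here.

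Of the 9 genes, 8 passed the count filter, and 1 of them, *Cidea*, differed between the genotypes past the threshold. It was lower in L1L2-AKO, and none of the 8 was higher. Of all genes tested, 16.5% passed the threshold, 9.28% as higher and 7.18% as lower, so 1 call in 8 is close to the background. The median log2 fold change of L1L2-AKO against L1L2-FF was -0.24 over the 8 genes and -0.02 over all genes tested. At an unadjusted p under 0.05 the count was 3, with *Ppargc1a* and *Cidea* below and *Kcnk3* above L1L2-FF, and DESeq2 and limma-voom each called *Cidea* alone. Here and below, counts at an unadjusted p stand without a share of all genes at that cut. The shares of calls given are for the adjusted p, so these counts cannot be set against a background. The libraries of the genotypes did not overlap for *Cidea* (lower) and *Kcnk3* (higher), beside 18.4% of all genes tested that lay lower without overlap and 18% that lay higher.

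**Figure D1:**
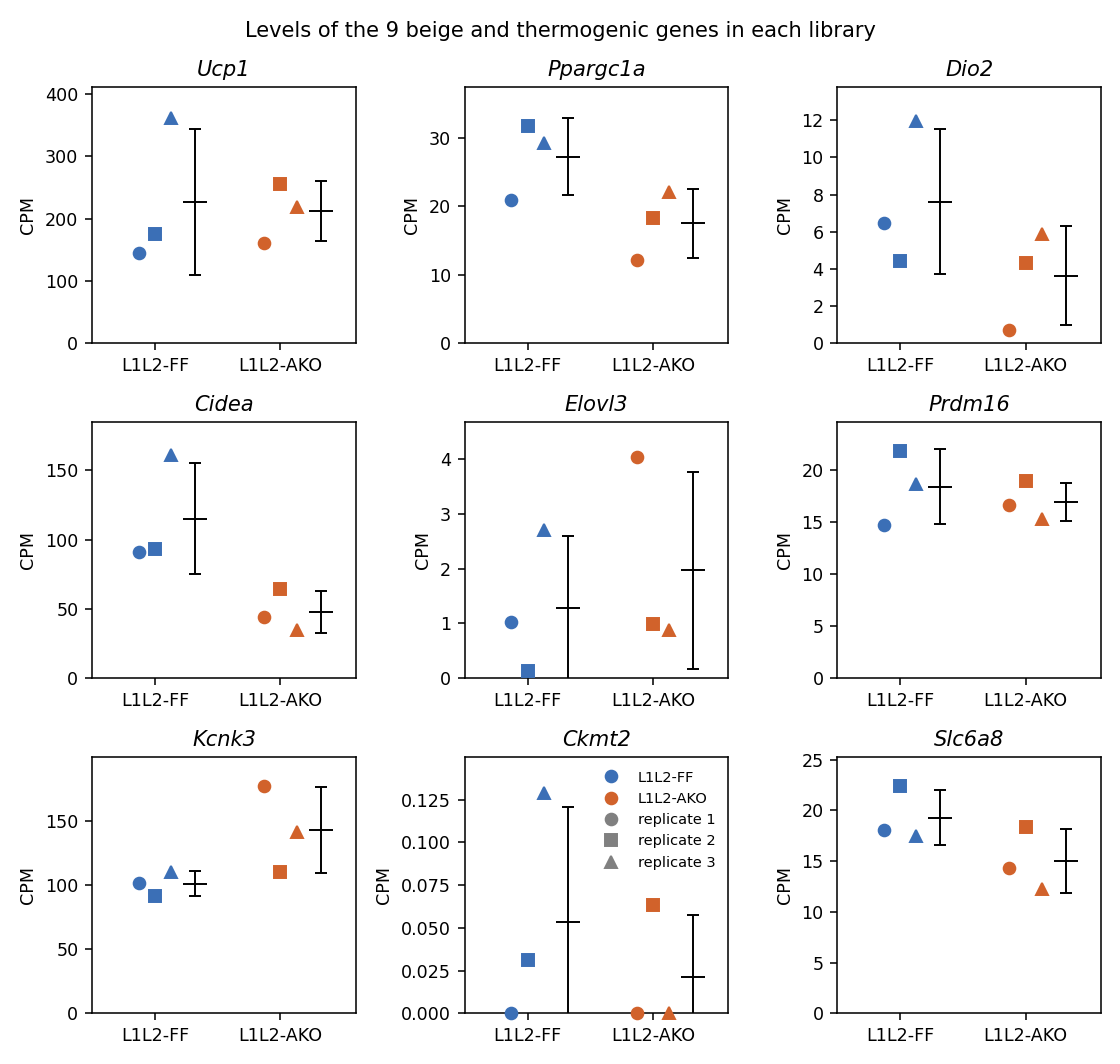
CPM of each gene in the 3 L1L2-FF (blue) and 3 L1L2-AKO (orange) libraries, with the symbol for the replicate number and the bar for mean ± SD; each panel has its own linear axis from 0, which cuts bars that reach below it. The *Cidea* points of the genotypes are apart, at 90.8 to 161 CPM and 34.98 to 64.6 CPM, whereas *Ucp1* reached its highest level in L1L2-FF replicate 3, at 361 CPM, and its lowest in L1L2-FF replicate 1.

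The levels spanned several orders of magnitude. Divided by exon length, *Ucp1* had the highest mean in L1L2-FF, at 139 CPM per kb, followed by *Cidea* at 103, *Kcnk3* at 25.4, *Ppargc1a* at 4.14, *Slc6a8* at 3.70, *Prdm16* at 1.98, *Dio2* at 1.31, *Elovl3* at 0.650 and *Ckmt2* at 0.0359 CPM per kb. In this order *Ucp1* and *Cidea* overlapped between libraries, as did *Ppargc1a* and *Slc6a8*, *Prdm16* and *Dio2*, *Dio2* and *Elovl3*, and *Elovl3* and *Ckmt2*. *Kcnk3* stood apart from both of its neighbours, and *Slc6a8* lay above *Prdm16* in every L1L2-FF library. In L1L2-AKO the order began in the same way, with *Ucp1* at 129, *Cidea* at 42.9 and *Kcnk3* at 35.9 CPM per kb, but *Ucp1* no longer overlapped with *Cidea*, and *Cidea* overlapped with *Kcnk3*. *Slc6a8* at 2.88 and *Ppargc1a* at 2.66 CPM per kb came next and overlapped, and *Prdm16* (1.82), *Elovl3* (0.996) and *Dio2* (0.625 CPM per kb) followed with overlapping neighbours.

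*Ucp1*, the uncoupling protein itself, lies at chr8:83290352-83298452 on the plus strand in mm10. It had 4525, 5658 and 11196 counts in L1L2-FF replicates 1 to 3 and 5314, 8058 and 6257 counts in L1L2-AKO replicates 1 to 3. In CPM this was 144, 175 and 361 against 160, 256 and 218.5. L1L2-FF replicate 3 lay above all other libraries and L1L2-FF replicate 1 below all of them, and the 3 L1L2-AKO values fell between those extremes. The means were 227 ± 117 CPM and 211 ± 48.0 CPM, with a log2 fold change of -0.10 (SE 0.34, edgeR adjusted p = 0.878). The 95% interval of -0.88 to 0.68 corresponds to 0.544-fold to 1.6-fold. Without L1L2-FF replicate 3 the log2 fold change was 0.40 and without L1L2-AKO replicate 1 it was 0.06, so the sign rests on either of these libraries.

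*Cidea*, whose product sits on the lipid droplet and is high in brown and beige adipocytes, lies at chr18:67343604-67367785 on the plus strand. Its counts were 2845, 3013 and 5004 in L1L2-FF and 1459, 2037 and 1002 in L1L2-AKO. The CPM values of 90.8, 93.2 and 161 in L1L2-FF all exceeded the 44.0, 64.6 and 34.98 in L1L2-AKO. From 115 ± 40.0 CPM in L1L2-FF *Cidea* fell to 47.9 ± 15.2 CPM in libraries that carry the L1L2-AKO label, at a log2 fold change of -1.27 (SE 0.29, edgeR adjusted p = 0.0217), which is 0.416-fold with a 95% interval of 0.263 to 0.659. L1L2-FF replicate 3 was again the highest library. Without it the log2 fold change was -0.94, with an edgeR adjusted p of 0.0466. The call was lost without L1L2-AKO replicate 1 (log2 fold change -1.21, edgeR adjusted p = 0.0616) and without L1L2-AKO replicate 3 (-1.08, edgeR adjusted p = 0.0807), while the direction was the same in each case. *Cidec*, the family member of large white lipid droplets, had a log2 fold change of -0.01 (edgeR adjusted p = 0.988) from a level of 1090 ± 105.5 CPM. Of 14 mature adipocyte markers, 6 fell past the threshold, *Adipoq*, *Pparg*, *Slc2a4*, *Cfd*, *Retn* and *Dgat2*, 0 rose and 8 did not pass. Their median log2 fold change was -0.60, but 2 of the 14, *Lep* and *Lpl*, were fitted above 0. The part of this, or of the higher macrophage markers, in the value of *Cidea* was not tested.

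*Dio2* and *Ppargc1a* are the cAMP-responsive genes whose start sites are printed above. *Dio2* encodes the type 2 deiodinase, which converts thyroxine to triiodothyronine, and lies at chr12:90724552-90738438 on the minus strand. It had 203, 143 and 371 counts in L1L2-FF and 23, 136 and 169 in L1L2-AKO. The CPM values were 6.48, 4.42 and 12.0 against 0.694, 4.31 and 5.90, so L1L2-AKO replicate 1 was far below all other libraries and replicate 3 lay within the range of L1L2-FF. The log2 fold change was -1.07 (SE 0.65, 95% interval -2.58 to 0.44, edgeR adjusted p = 0.319), and it was -0.58 without L1L2-AKO replicate 1 and -0.60 without L1L2-FF replicate 3. The interval includes both a loss of most of the RNA and no loss.

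*Ppargc1a*, which encodes PGC1α, lies at chr5:51454250-51567726 on the minus strand. Its counts of 654, 1025 and 907 in L1L2-FF stood beside 401, 578 and 633 in L1L2-AKO. Of the CPM values, 20.9, 31.7 and 29.2 in L1L2-FF and 12.1, 18.3 and 22.1 in L1L2-AKO, only L1L2-AKO replicate 3 and L1L2-FF replicate 1 crossed over. The means were 27.3 ± 5.67 CPM and 17.5 ± 5.05 CPM, with a log2 fold change of -0.64 (SE 0.24). Its 95% interval of -1.20 to -0.08 leaves out 0, yet the edgeR adjusted p was 0.114, so the difference did not pass the threshold over all genes. Replicate 1 was the lowest library of each genotype. The coactivators related to it did not move as a group: *Ppargc1b* had a log2 fold change of -0.38 (edgeR adjusted p = 0.150), whereas *Pprc1* rose from 26.2 ± 3.44 CPM to 43.5 ± 3.25 CPM (log2 fold change 0.73, edgeR adjusted p = 0.00858).

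*Prdm16*, the zinc finger factor of brown and beige identity, lies at chr4:154316125-154636873 on the minus strand. It had 461, 707 and 580 counts in L1L2-FF and 552, 597 and 438 in L1L2-AKO, which is 14.7, 21.9 and 18.7 CPM against 16.6, 18.9 and 15.3 CPM. Every L1L2-AKO value lay within the range of L1L2-FF. The log2 fold change of -0.12 (SE 0.17, edgeR adjusted p = 0.701) had a 95% interval of -0.52 to 0.28, the narrowest of the 8 genes.

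*Elovl3*, a fatty acid elongase of brown fat that is also known from the sebaceous glands of the skin, lies at chr19:46131897-46135694 on the plus strand. Its counts were low, at 32, 4 and 84 in L1L2-FF and 134, 31 and 25 in L1L2-AKO. In CPM it reached 1.02, 0.124 and 2.71 in L1L2-FF and 4.04, 0.983 and 0.873 in L1L2-AKO. L1L2-FF replicate 2 was near the floor of 3 counts, which is 0.0928 CPM in that library, and the highest level was in L1L2-AKO replicate 1. The log2 fold change of 0.62 (SE 0.91, 95% interval -1.48 to 2.73, edgeR adjusted p = 0.702) turned to -0.46 without L1L2-AKO replicate 1. Keratinocyte, mammary and sebaceous markers, of which 4 of 12 passed the filter and *Awat1* was at the floor, summed to 18.5, 10.6 and 36.4 CPM in L1L2-FF and 8.87, 5.36 and 8.17 CPM in L1L2-AKO. Among the L1L2-FF libraries these sums followed the order of *Elovl3*, with *Krt79* alone at 14.5, 6.65 and 24.2 CPM. L1L2-AKO replicate 1 had the most *Elovl3* but a lower marker sum than every L1L2-FF library. The part of these markers in the spread of *Elovl3* was not tested. Of the other elongases, *Elovl1* rose from 64.1 ± 13.6 CPM to 119 ± 8.61 CPM (log2 fold change 0.89, edgeR adjusted p = 0.00867) and *Elovl7* fell from 1.82 ± 0.429 CPM to 0.580 ± 0.294 CPM (log2 fold change -1.66, edgeR adjusted p = 0.0437), a call that was lost whichever of the 6 libraries was left out. *Elovl6*, an enzyme of lipogenesis, ranged from 34.5 to 190 CPM among the L1L2-FF libraries alone, with the highest level in replicate 3 as for *Elovl3*.

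*Kcnk3* encodes the potassium channel TASK1, known from brown and beige adipocytes, and lies at chr5:30588170-30625271 on the plus strand. The counts were 3185, 2955 and 3419 in L1L2-FF and 5868, 3476 and 4043 in L1L2-AKO. As CPM, 102, 91.4 and 110.2 in L1L2-FF stood below 177, 110.3 and 141 in L1L2-AKO, but the gap between the nearest libraries was 110.2 against 110.3 CPM. The log2 fold change was 0.50 (SE 0.18, 95% interval 0.09 to 0.91), opposite in sign to those of *Cidea*, *Dio2* and *Ppargc1a*, and did not pass the threshold (edgeR adjusted p = 0.0962). Without L1L2-AKO replicate 1, the highest library, it was 0.31. The gene *Gm9899* on the other strand overlaps 5.76% of the exon bases of *Kcnk3*, and the strand setting of the counting is not given in the sources used here. Of the 50-base stretches of its transcripts, 0.255% also occur in those of other genes.

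Of the creatine genes, *Slc6a8* was in the middle of the group by level and *Ckmt2* was at its lower end. *Slc6a8*, the creatine transporter, at chrX:73673150-73682502 on the plus strand, had 565, 724 and 541 counts in L1L2-FF and 475, 580 and 350 in L1L2-AKO. The CPM values were 18.0, 22.4 and 17.4 against 14.3, 18.4 and 12.2, and L1L2-AKO replicate 2 lay within the range of L1L2-FF. The log2 fold change was -0.36 (SE 0.19, 95% interval -0.79 to 0.06, edgeR adjusted p = 0.230). *Ckmt2*, a mitochondrial creatine kinase at chr13:91853387-91876885 on the minus strand, had 0, 1 and 4 counts in L1L2-FF and 0, 2 and 0 in L1L2-AKO. It did not pass the filter, has no test and no fold change, and a count of 0 allows up to 0.0905 to 0.105 CPM in the libraries that had none. No library had more than 4 counts of its relative *Ckmt1*, and the cytosolic *Ckb* was at 20.4 ± 1.03 CPM in L1L2-FF and 26.5 ± 8.07 CPM in L1L2-AKO (log2 fold change 0.38, edgeR adjusted p = 0.273).

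**Figure D2:**
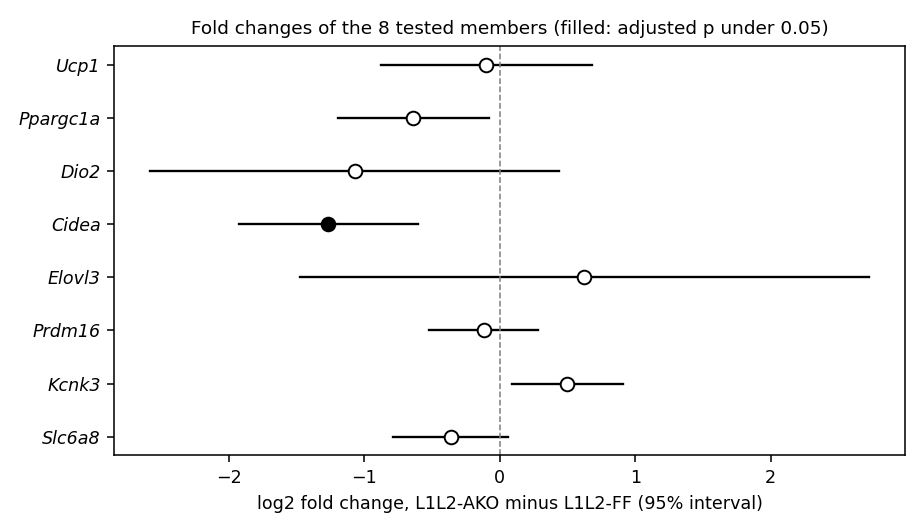
Log2 fold change of L1L2-AKO against L1L2-FF for the 8 genes tested, as points with 95% intervals from edgeR's quasi-likelihood fit; the filled point passed the threshold of an adjusted p of 0.05. Only *Cidea* is filled, at -1.27, and the intervals of *Dio2* and *Elovl3* are the widest.

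The spread among the L1L2-FF libraries differed strongly from gene to gene. It is given as the SD of log2 CPM over the 3 libraries, beside the median SD of tested genes whose mean log2 CPM lay within 0.5. For *Ucp1* the SD was 0.70 against 0.17, at percentile 98.2 of the genes of like level, and the highest library had 2.5 times the CPM of the lowest. *Elovl3* was at percentile 99.7 (1.97 against 0.45, a ratio of 21.9), *Cidea* at 94.4 (0.47 against 0.16, a ratio of 1.78) and *Dio2* at 91.6 (0.72 against 0.29, a ratio of 2.7). These 4 genes were thus among the most variable of their level in the control genotype. *Ppargc1a* followed at percentile 80.3 and *Prdm16* at 73.4. *Slc6a8* at percentile 48.7 and *Kcnk3* at 41.1 varied as a typical gene did, with ratios of 1.28 and 1.21.

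In L1L2-AKO the variable genes were in part others. *Dio2* had the SD at the highest percentile, 99.7, with 8.5 times more CPM in replicate 3 than in replicate 1. *Elovl3* was at percentile 98.9, *Cidea* at 94.6, *Ppargc1a* at 93.3, *Kcnk3* at 91.2, *Ucp1* at 88.7 and *Slc6a8* at 83.4. *Prdm16*, at percentile 52.4, was the steadiest. Whether the spread of a gene differed between the genotypes was not tested.

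**Figure D3:**
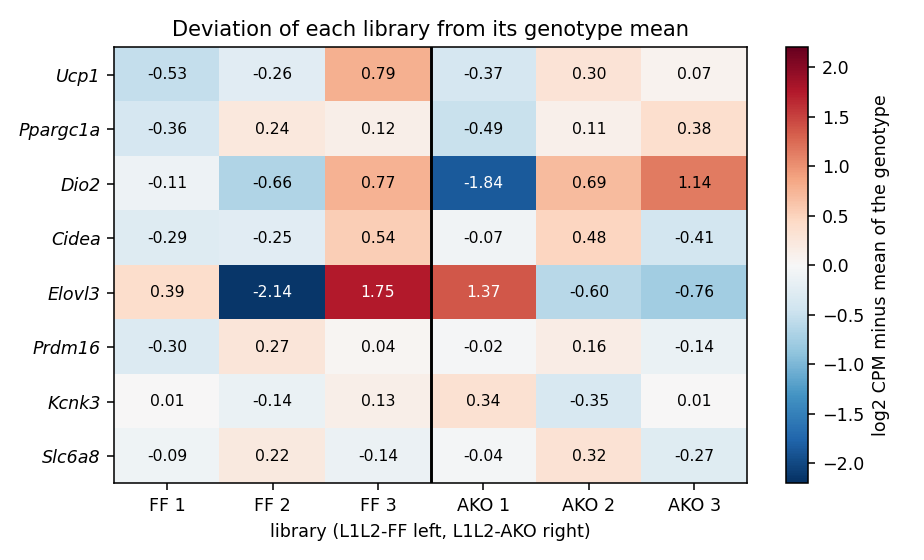
Log2 CPM of each library minus the mean of its genotype for the 8 genes tested, with red above and blue below that mean. L1L2-FF replicate 3 is red for *Ucp1* (0.79), *Dio2* (0.77), *Cidea* (0.54) and *Elovl3* (1.75), and L1L2-AKO replicate 1 is blue for *Dio2* (-1.84) and red for *Elovl3* (1.37).

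L1L2-FF replicate 3 was the highest of its genotype for *Ucp1*, *Dio2*, *Cidea*, *Elovl3* and *Kcnk3*, 5 of the 8 genes, and L1L2-FF replicate 2 for *Ppargc1a*, *Prdm16* and *Slc6a8*. Of all genes tested, 36.0% were highest in L1L2-FF replicate 3. Among other effector genes of brown and beige adipocytes, such as *Cox8b* and *Cox7a1*, 14 of 19 were highest there, against 4 of 18 of the receptors and factors that regulate them. Mature adipocyte markers were highest in L1L2-FF replicate 3 for 8 of 14 genes, with sums of 41000, 33420 and 40870 CPM in replicates 1 to 3. All 10 progenitor, 10 endothelial and 10 lymphocyte markers and 16 of 18 macrophage markers were lowest in L1L2-FF replicate 3. That was so for 6041 of the 15674 genes tested. The progenitor markers, for instance, summed to 1824, 2780 and 1127 CPM, so this library had the least marker RNA by these 4 lists. Schwann cell markers were instead lowest in L1L2-FF replicate 1 (10 of 10), and the 4 keratinocyte, mammary and sebaceous markers tested were highest in replicate 3. The part of these cells in the spread of *Ucp1* and *Cidea* was not tested. The second principal component, with 17.2% of the variance, also separated L1L2-FF replicate 3 from replicate 2, while the first, with 61.8%, separated the genotypes.

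Each gene was also expressed relative to *Ucp1* in the same library, a measure chosen after the values were seen. The log2 ratio of *Cidea* to *Ucp1* was -0.67, -0.91 and -1.16 in L1L2-FF and -1.86, -1.98 and -2.64 in L1L2-AKO, with no overlap. The mean difference was -1.25, and the two-sided exact permutation test gave p = 0.1, the smallest that 3 against 3 libraries can give (0.467 after Benjamini-Hochberg adjustment over 7 ratios). The SD of the *Cidea* ratio among L1L2-FF libraries was 0.25 on the log2 scale, compared with 0.47 for *Cidea* itself, and the SD of the *Dio2* and *Elovl3* ratios was 0.41 and 1.63 compared with 0.72 and 1.97. For the other 4 genes the SD was larger as a ratio, at 0.60 for *Ppargc1a*, 0.67 for *Prdm16*, 0.61 for *Kcnk3* and 0.80 for *Slc6a8*. For *Dio2* the ratio differed by -1.38 (exact permutation p = 0.2) and for *Ppargc1a* by -0.65 (exact permutation p = 0.2), with overlap in both. *Elovl3*, *Prdm16*, *Kcnk3* and *Slc6a8* had ratios that overlapped between genotypes, with differences of 0.95, -0.10, 0.48 and -0.37 and exact permutation p values of 0.5 to 0.9.

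**Figure D4:**
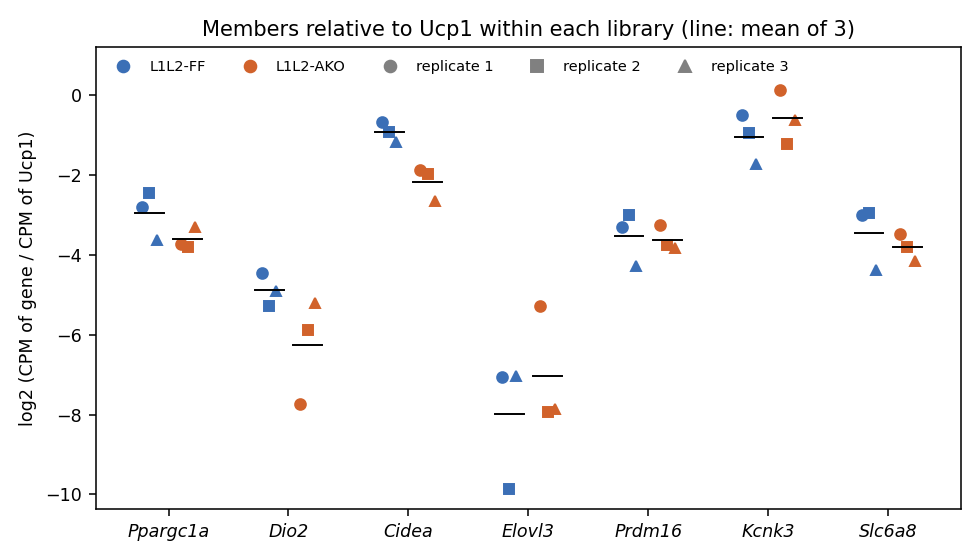
Log2 ratio of the CPM of each gene to that of *Ucp1* in the same library, for 3 L1L2-FF (blue) and 3 L1L2-AKO (orange) libraries, with lines at the means. The *Cidea* ratios lie at -0.67 to -1.16 in L1L2-FF and at -1.86 to -2.64 in L1L2-AKO without overlap, and every other gene overlaps.

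The other genes of the programme were read beside the 9. Of 46 such genes, listed as regulators, effectors and genes selective for beige or brown fat, 44 were tested, and 15 passed the threshold, 2 as higher and 13 as lower, which is 34.1% beside 16.5% of all genes. Their median log2 fold change was -0.49, compared with -0.24 for the 8 genes above. Mature adipocyte markers in the same libraries had 42.9% called, all as lower, and a median of -0.60, and 88.9% of the macrophage markers were called as higher, and the part of either in the count of 15 was not tested. That count was 8 without L1L2-FF replicate 1, L1L2-AKO replicate 2 or L1L2-AKO replicate 3. Among 18 regulators 6 fell and 1 rose. *Adrb3*, the beta-3 adrenergic receptor through which noradrenaline acts on mouse adipocytes, had 110.1, 110.5 and 122.5 CPM in L1L2-FF and 21.8, 17.3 and 16.9 CPM in L1L2-AKO, with no overlap (log2 fold change -2.62, SE 0.14, edgeR adjusted p = 1.28e-04). *Ucp1*, *Dio2* and *Ppargc1a*, the genes that this receptor is known to induce, did not pass the threshold in the same libraries, and whether their change differed from that of *Adrb3* was not tested. *Nrip1*, a corepressor known to restrain *Ucp1*, fell from 179 ± 17.6 CPM to 79.7 ± 14.6 CPM (log2 fold change -1.17, edgeR adjusted p = 0.00243). The nuclear receptors *Rxrg*, *Thrb*, *Ppara* and *Pparg* fell by 1.09, 0.90, 0.84 and 0.59 on the log2 scale, and *Pparg* is also an adipocyte marker. The call held for *Rxrg* with each library left out, and was lost for *Thrb* in 4, *Pparg* in 3 and *Ppara* in 2 of these 6 fits. *Gadd45g*, a stress-inducible cofactor, rose from 59.0 ± 11.2 CPM to 117 ± 42.7 CPM with overlapping libraries (log2 fold change 0.99, edgeR adjusted p = 0.0468), while the beta-1 receptor gene *Adrb1* had a log2 fold change of 0.89 (edgeR adjusted p = 0.107).

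Among 19 effectors tested 5 fell and 0 rose by edgeR, with 2 higher at an unadjusted p under 0.05, 1 higher by DESeq2 and 0 by limma-voom. By edgeR 7.18% of all genes tested were called lower and 9.28% higher. *Cox8b*, a cytochrome oxidase subunit of brown fat and muscle, fell, like *Cidea*, from 60.7 ± 19.1 CPM to 20.5 ± 5.31 CPM (log2 fold change -1.56, edgeR adjusted p = 0.00597). *S100b*, a calcium-binding protein of thermogenic adipocytes that is also made by Schwann cells, fell from 49.5 ± 26.2 CPM to 11.5 ± 1.47 CPM (log2 fold change -2.10, edgeR adjusted p = 0.00937). Schwann cell markers summed to 806 to 1764 CPM in L1L2-FF and 757 to 1411 CPM in L1L2-AKO, with 3 of 10 lower and 1 higher. These sums include *Pmp22*, the marker that rose, at 446 ± 86.6 CPM in L1L2-FF and 902 ± 264 CPM in L1L2-AKO. By fitted log2 fold change 9 of the 10 lay below 0, with a median of -1.58. DESeq2 called 9 lower and 1 higher, and limma-voom called 1 lower and 1 higher. The part of these markers in the value of *S100b* was not tested. *P2rx5*, a purinergic receptor, and *Ehhadh*, an enzyme of peroxisomal fatty acid oxidation, fell by 1.55 and 0.93 on the log2 scale. *Slc27a2* also fell, but at no more than 1.05 CPM. *Cox7a1*, with a log2 fold change of -0.78 (edgeR adjusted p = 0.0686), and *Plin5*, with 0.06 (edgeR adjusted p = 0.873), did not pass. Skeletal muscle shares some of these genes. Of its markers *Ckm* had at most 0.866 CPM and *Tnnc2* was at the floor, whereas *Myl1* had 53.4 to 103.5 CPM in L1L2-FF and 38.0 to 55.8 CPM in L1L2-AKO, and *Des* 26.6 to 33.0 CPM and 13.9 to 24.0 CPM. Genes on the other strand overlap 74.0% of the exon bases of *Tnnc2* and 15.5% of those of *Ckm*. With the strand setting of the counting not given, the low count of *Tnnc2* cannot show that its RNA was absent. The list of 16 summed to 103 to 152 CPM in L1L2-FF and 63.7 to 80.6 CPM in L1L2-AKO. Of 9 muscle markers tested 0 passed by edgeR, with 6 at an unadjusted p under 0.05, 5 called lower by DESeq2 and 1 by limma-voom, and their part in the value of *Cox8b* was not tested.

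Genes described as selective for beige or for interscapular brown adipocytes were low or at 0. *Zic1*, a factor of classical brown fat, had 0 counts in all 6 libraries, which allows up to 0.0905 to 0.105 CPM, and *Lhx8* had 1.09 to 3.18 CPM. *Tmem26*, a beige surface protein, fell from 1.84 ± 0.801 CPM to 0.529 ± 0.140 CPM, *Mpzl2* fell by 1.00 on the log2 scale, and *Epsti1* rose by 1.40 on the log2 scale. These were the calls among 7 genes of the list tested, 42.9% beside 16.5% of all genes. *Cited1* did not pass (log2 fold change 0.65, edgeR adjusted p = 0.239). Nor did *Tnfrsf9* (-0.29, edgeR adjusted p = 0.697), *Tbx1* (-0.63, edgeR adjusted p = 0.294) or *Lhx8* (-0.63, edgeR adjusted p = 0.337). In the creatine and calcium cycling list, 2 of 8 tested genes rose and 0 fell by edgeR. Of all genes tested, 9.28% were called higher and 7.18% lower. In so short a list the count rests on *Alpl* and *Atp2a2* alone. At an unadjusted p under 0.05, 0 were lower, and 0 were lower by DESeq2 or limma-voom. *Alpl*, a phosphatase with a part in creatine cycling, rose from 9.11 ± 2.58 CPM to 49.96 ± 21.2 CPM (log2 fold change 2.46, edgeR adjusted p = 0.00328), and *Atp2a2*, the calcium pump SERCA2, rose from 260 ± 37.5 CPM to 403 ± 37.3 CPM (log2 fold change 0.63, edgeR adjusted p = 0.0251). Among relatives of the 9 genes by family, *Ucp3* had 55.1, 27.2 and 86.6 CPM in L1L2-FF, with the same highest library as *Ucp1*, and fell to 12.6 ± 4.62 CPM (log2 fold change -2.16, edgeR adjusted p = 0.0118). *Ucp2*, which macrophages also express, had a log2 fold change of 0.65 (edgeR adjusted p = 0.127), and the part of the higher macrophage markers in it was not tested.

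**Figure D5:**
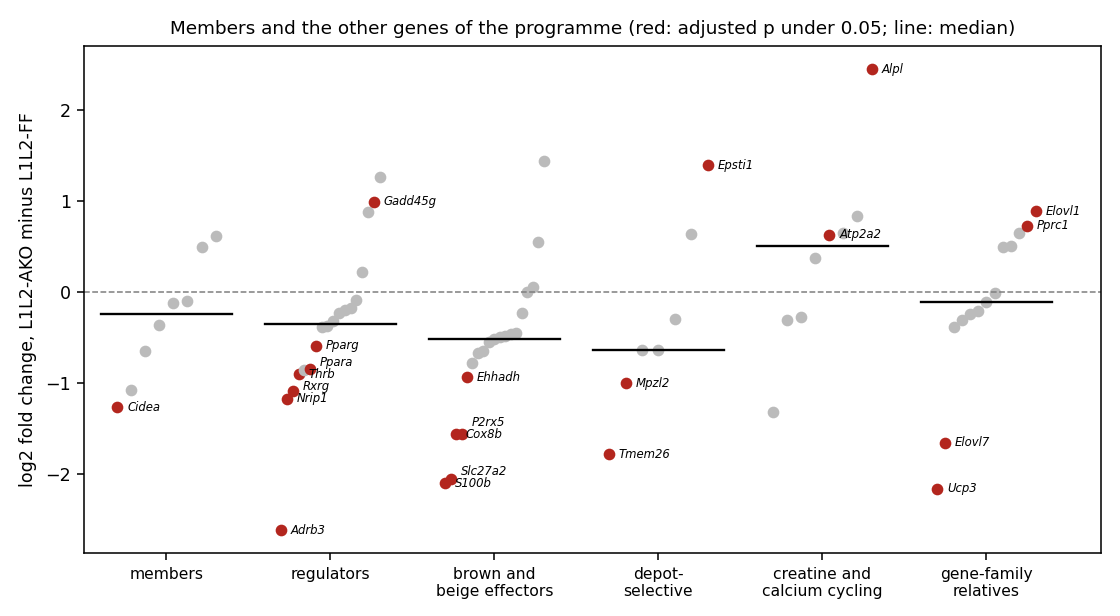
Log2 fold change of L1L2-AKO against L1L2-FF for the genes tested in 6 lists, the group of 9, the regulators, the effectors, the genes selective for beige or brown fat, creatine and calcium cycling, and relatives by family, sorted within each list, with genes past an adjusted p of 0.05 in red and the median as a line. *Cidea* is the red point of the first list, *Adrb3* is the lowest point of these 6 lists at -2.62, and *Alpl* is the highest at 2.46.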

How the data were processed

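RNA from floated adipocytes of inguinal scWAT was sequenced in 6 libraries, each of 4 pooled mice, grouped by genotype and replicate number per the labels. Paired-end BGISEQ-500 reads were quality-checked by the authors (FastQC), mapped to mm10 (HISAT2 v2.1.0) and handled further in SAMtools and StringTie v1.3.5. They deposited whole-number counts for each gene symbol, not normalized. The annotation, the counting program and its strand setting are not given in the sources used here, so reads of overlapping genes could be assigned either way. Total counts of 30548473 to 32107917 put the floor of 3 counts at 0.0905 to 0.105 CPM, which covers counting error only.

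The 9 genes, the lists and the tests were chosen with earlier results of these data known. Counts were analysed in R 4.3.3 with edgeR 4.0.16 (filterByExpr, minimum count 10; TMM; quasi-likelihood test, two-sided, Benjamini-Hochberg adjustment over 15674 genes, threshold 0.05, no replicate block). The labels name no litter or day for a pool, and p-values measure only the spread between pools. The SE of a log2 fold change is its size over the square root of F. Log2 CPM used a prior count of 2. Positions, exon lengths and overlaps come from GENCODE M21, and start site windows from RefSeq on GRCm38.p6. The fit was tested on simulated data, where it recovered 99% of 4-fold and 53.5% of 2-fold changes, with 3 false calls among 152. A gene that did not pass can thus still differ by 2-fold or less. All genes were simulated with the same spread between libraries, so these shares need not hold for genes as variable as *Ucp1*, *Dio2* or *Elovl3*. Python 3.11.15, pandas 2.3.3 and matplotlib 3.10.9 made tables and plots.

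Named genes were all 9, up to 4 genes past the threshold with the largest change per list at a mean log2 CPM of at least 1, those that a result on the 9 turns on, the 5 most like *Ucp1* and *Dio2* over the libraries, and *Lats1* and *Lats2*. *Thrb*, *Ppara*, *Pparg*, *Slc27a2*, *Tmem26*, *Adrb1*, *Ppargc1b*, *Cox7a1*, *Plin5*, *Cidec*, *Ckb*, *Ucp2*, *Elovl6*, *Fgf21*, *Gk*, *Gatm*, *Lhx8*, *Cited1*, *Tnfrsf9*, *Tbx1*, *Elovl7*, *Myl1*, *Des*, *Lep* and *Lpl* fall outside that rule and were chosen after their values were seen. Alternatives were DESeq2 1.42.0 size factors and Wald test, upper-quartile factors, library size alone, limma 3.58.1 voom, edgeR's robust setting, no filter, at least 10 counts in every library, the replicate number as a block, a prior count of 0.5, and each library left out. Replicates of a genotype differed by more than sampling noise (chi-square per degree of freedom 29.5 to 156), so none was a copy of another.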

Additional observations from a re-analysis of the deposited data

How the results depend on the processing

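Under the other normalizations, tests and filters, the number of genes past the threshold was 2413 to 3374 against 2580, the 9 genes gave 1 call in each, and the 44 other thermogenic genes gave 13 to 19 against 15. Upper-quartile factors split the calls into 1347 higher and 1297 lower in place of 1455 and 1125. Leaving out each library gave 1281 to 2845 genes (1290 without L1L2-FF replicate 1, and 1281 and 1374 when L1L2-AKO replicate 2 or 3 was left out), 0 to 1 of the 9 genes, 8 to 13 other thermogenic genes (8 without L1L2-FF replicate 1 and when L1L2-AKO replicate 2 or 3 was left out) and 3 to 7 of the creatine, calcium and relatives lists against 6 (3 without L1L2-AKO replicate 2 or 3). The count of the 9 was 0 by edgeR without L1L2-AKO replicate 1, with 1 at an unadjusted p under 0.05, and 0 without L1L2-AKO replicate 3, with 3. *Cidea* kept its direction under all 16 alternatives, at -1.54 to -0.94, with edgeR, limma or DESeq2 adjusted p from 2.21e-04 to 0.0807. With a library left out the log2 fold change turned over for *Ucp1* (-0.35 to 0.40; 0.40 without L1L2-FF replicate 3 and 0.06 if L1L2-AKO replicate 1 was dropped), *Elovl3* (-0.46 to 1.79; -0.46 if L1L2-AKO replicate 1 was dropped), *Prdm16* (-0.26 to 0.0216; 0.0216 without L1L2-FF replicate 2), *Plin5* (-0.12 to 0.24; -0.12 without L1L2-FF replicate 1 and -0.07 if L1L2-AKO replicate 2 was dropped) and *Cidec* (-0.11 to 0.14; 0.07 without L1L2-FF replicate 1 and 0.14 if L1L2-AKO replicate 2 was dropped, and also 0.002342 with DESeq2 size factors and 0.003987 with its Wald test), none of which passed the threshold in either direction; the cause was not tested. *Adrb3*, *Nrip1*, *Rxrg*, *Cox8b*, *S100b*, *P2rx5*, *Ehhadh*, *Alpl*, *Pprc1*, *Elovl1* and *Lats1* passed in the same direction under all 16 alternatives, whereas *Ppara*, *Pparg*, *Thrb*, *Gadd45g*, *Slc27a2*, *Tmem26*, *Epsti1*, *Mpzl2*, *Atp2a2*, *Ucp3*, *Elovl7* and *Lats2* kept their direction and lost the call in at least 2 of the fits with a library left out. *Gadd45g* also lost it with upper-quartile factors and limma-voom, and *Mpzl2* with library size alone and limma-voom, while *Cox7a1*, *Adrb1* and *Fgf21* passed by DESeq2. For equal replicate numbers the correlations of the deviations from the genotype means were 0.188, 0.255 and -0.0544. For unequal numbers they ran from -0.324 to 0.211. The labels name nothing shared by equal numbers, so these values cannot decide whether the libraries were paired. With the replicate number as a block, 2514 genes and 2 of the 9 passed, adding *Ppargc1a* (edgeR adjusted p = 0.0258), and 16 and 8 of the other lists. Under the scalings the median over all genes stayed at -0.05 to -0.01 on the log2 scale. The depth limits *Ckmt2*, of which at most 4 counts were seen in a library.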

Other observations

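Genes whose log2 CPM ran most like that of *Ucp1* over the 6 libraries were searched among 9957 tested genes with a mean log2 CPM of at least 3, as a description with no p. They were *Rprd1b* (Pearson's r 0.969), *Pphln1* (0.958), *Mfsd14a* (0.956), *Rpsa-ps10* (0.955) and *Nsmce3* (0.954). Their levels moved little, as *Rprd1b* ranged from 31.7 to 34.5 CPM while *Ucp1* ranged from 144 to 361 CPM. For *Dio2* the genes were *Zbtb18* (0.988), *Osgep* (0.987), *Dmac2l* (0.980), *Pcid2* (0.979) and *Gtf2a2* (0.977). *Dmac2l* ranged from 6.70 to 12.6 CPM, with its lowest level in L1L2-AKO replicate 1, where *Dio2* was lowest too. No gene of the group was among these, but not all of them could be. *Dio2* (mean log2 CPM 2.13) and *Elovl3* (0.20) lay below the level searched, and *Ckmt2* was not tested. Within the group, r with *Ucp1* ran from -0.12 for *Kcnk3* to 0.55 for *Dio2*. With *Dio2* it ran from -0.70 for *Kcnk3* to 0.82 for *Ppargc1a*.

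*Fgf21*, a hormone that thermogenic adipocytes can secrete, ranged from 0.19 to 1.26 CPM and had a log2 fold change of 1.45 (edgeR adjusted p = 0.0532). *Gk*, glycerol kinase, had a log2 fold change of 0.55 (edgeR adjusted p = 0.151) and of 0.87 without L1L2-FF replicate 3 (edgeR adjusted p = 0.0121). It passed the threshold in that fit alone and not under the other 15 alternatives. *Gatm*, the enzyme of the first step of creatine synthesis, had a log2 fold change of 0.65 (edgeR adjusted p = 0.113) and of 0.99 without L1L2-FF replicate 2 (edgeR adjusted p = 0.00651). It passed under 2 alternatives, this fit among them, and did not under 14. Neither gene passed with all libraries in the main fit.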
